A study of Homo sapiens with 2 samples.

Results

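Human genes whose symbol is ZNF followed by a number, most of them zinc finger transcription factors, were described in RNA libraries of 95D cells, a human lung cancer line. The members were all names of the form ZNF, digits and at most 1 further letter that carried a number in the deposited tables, and values of transcript rows sharing a name were summed. This gave 118 of the 9253 names with a value, resting on 177 transcript rows. The labels describe 2 samples of wild-type 95D cells. Both were seeded for 24 h in complete medium and then kept for 48 h in medium with 10% dialyzed serum, the one lacking glucose and the other lacking glutamine. They are called the no-glucose and the no-glutamine library here, and glucose-deprived and glutamine-deprived in the plots. The titles and treatment labels give these conditions, but the value column of the first table is headed with the abbreviation Glu, which can stand for other nutrients, and the descriptions of both samples point to a column named for glucose. Which library is which therefore rests on the titles and treatment labels, and so does every direction below. No sample in full medium was analysed here, and since each condition has 1 sample, the differences are without a replicate check and no test was run. The series is titled as an immunoprecipitation of RNA bound to the demethylase ALKBH5, but the label of neither sample states that it is a pull-down, and binding is not described. The tables name their rows as long non-coding RNA gene names, so a value under a ZNF name is that of the listed transcripts, which need not be the protein-coding messenger RNA.

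A C2H2 zinc finger is a short fold in which cysteines and histidines hold a zinc ion, and strings of such fingers read DNA sequence. The largest class in human cells also carries a KRAB domain, which binds the co-repressor TRIM28 and through it the histone methyltransferase SETDB1, and many of these proteins silence transposable elements. Their genes lie in clusters, above all on chromosome 19. The symbol is also held by proteins of other kinds, such as the ubiquitin ligase ZNF598, and by pseudogenes.

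Depth differed strongly between the libraries. The deposited values climb in equal steps, from which 42827 reads were recovered in the no-glucose and 1442570 in the no-glutamine library, a 33.7-fold difference, over the listed transcripts only. Lung and epithelial identity rested on few markers. Of 8 epithelial and lung markers 7 were listed and 4 had a value. These were KRT8 (199.8 without glucose and 143 without glutamine), NAPSA (161 and 18.9), KRT18 and KRT19, while EPCAM, CDH1, SFTPB and NKX2-1 had none. Of 7 markers of leukocytes, endothelium and fibroblasts 5 were listed and none had a value. Only 31.7% of all listed names carried a number, so this says little about other cell types. Of 3 mesenchymal markers fibronectin, FN1, stood at 344 without glucose and 963 without glutamine, VIM at 0 and 75.9, and CDH2 had no value.

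ZNF transcripts were almost all seen in the no-glutamine library alone. All 118 names were above 0 there, as were 99.5% of all names. In the no-glucose library 3 of the 118 were above 0, ZNF195, ZNF655 and ZNF789. That is 2.54% of the ZNF names, where 4.25% of all names and 5.23% of protein-coding names were above 0 without glucose. On the log2(value + 1) scale 116 of 118 ZNF names (98.3%) were at least 2-fold higher without glutamine, next to 97.4% of all names, and 0 were at least 2-fold higher without glucose, next to 1.42% of all names. Of the 116, 115 were listed at 0 without glucose, where the ratio is set by the pseudocount and no fold is given. Since a row carried a number only if it was above 0 in at least 1 library, those 115 could only come out higher without glutamine, and the shares of ZNF names are close to those of all names. With log2 ratios centred on the median of all names, 43 ZNF names lay at least 2-fold above that median and 32 at least 2-fold below it. A name at 0 without glucose falls below the median by a low no-glutamine value alone. The 32 is therefore not a count of names higher without glucose, where only 3 ZNF names were above 0. The centred counts were not made over all names, so they do not set the ZNF names apart. In bulk libraries, fewer cells of a kind and less RNA per cell cannot be told apart. The median log2 ratio was 4.51 over the ZNF names and 4.32 over all names, values that the pseudocount sets for most names: with a pseudocount of 0.1 the ZNF median was 7.77, and after centring it was 0.19.

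ZNF195, a KRAB zinc finger gene on chromosome 11, stood at 179.5 without glucose and at 156 without glutamine, which are 142 and 197 recovered reads. It rested on a single transcript row with a value. ZNF655, whose protein was first described as a partner of the signalling adaptor VAV1, stood at 128 and 521, or 101 and 659 reads, over 4 rows. ZNF789, another KRAB gene, stood at 101 and 104, or 80 and 131 reads, also over 4 rows. As deposited, ZNF655 was thus higher without glutamine, with a log2 ratio of 2.02 (95% counting interval 1.72 to 2.32). The ratios of ZNF195, -0.20 (-0.51 to 0.11), and ZNF789, 0.034 (-0.37 to 0.43), had intervals that include 0. With each library rescaled to the same sum the 3 log2 ratios were -2.37, -4.59 and -4.35, so the direction of ZNF655 depends on the scale of the libraries, which no source states. The median log2 ratio of the 351 names above 0 in both libraries was 0.61 as deposited and -3.77 after rescaling.

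**Figure D1:**
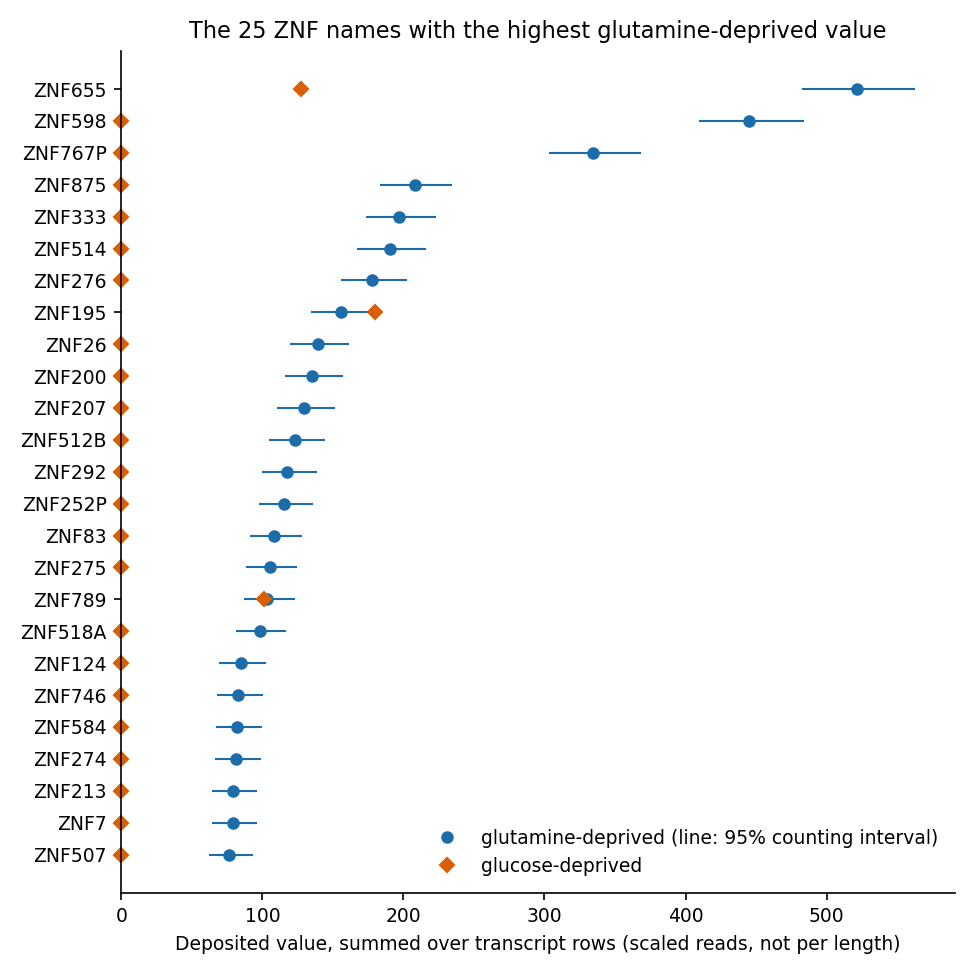
Deposited values (horizontal axis, scaled reads summed over transcript rows) of the 25 ZNF names with the highest value without glutamine. Blue points are the no-glutamine library with lines for the 95% counting interval, orange diamonds the no-glucose library; ZNF655, ZNF195 and ZNF789 have a diamond above 0 and the other diamonds lie at 0.

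ZNF655 and ZNF789 lie in the same zinc finger cluster, with ZNF394, ZKSCAN5 and FAM200A between them. RefSeq places ZNF789 at chr7:99472890-99487605 and ZNF655 at chr7:99558642-99576453 on GRCh38.p14, 71036 bases apart, and ZNF195 at chr11:3357927-3379146. The promoters of the 3 names are shown as the sequences around RefSeq start sites of the genes seen in both libraries. Whether the counted transcripts start there is not known here. Each is 300 bases of RefSeq sequence on the gene's strand, from 250 bases before the start site, with matches to any of 6 motifs in capitals. The motifs, searched on both strands, were the GC box GGGCGG, the CCAAT box CCAAT, the ETS core CCGGAAG, the YY1 core AGATGGC, the E-box CACGTG and the TATA box TATAAA, and none of them contains another. ZNF655, plus strand, is shown for the most upstream of 3 listed windows, chr7:99558392-99558691, and ZNF789, plus strand, for chr7:99472640-99472939. The ZNF655 window overlaps FAM200A, which ends at chr7:99558543. ZNF195, minus strand, is shown for chr11:3379097-3379396.
ZNF655: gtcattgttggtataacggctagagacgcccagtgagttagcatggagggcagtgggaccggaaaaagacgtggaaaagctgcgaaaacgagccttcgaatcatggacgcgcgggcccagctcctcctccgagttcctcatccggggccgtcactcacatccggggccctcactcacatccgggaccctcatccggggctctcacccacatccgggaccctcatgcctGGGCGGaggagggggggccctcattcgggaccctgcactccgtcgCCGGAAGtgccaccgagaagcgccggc
ZNF789: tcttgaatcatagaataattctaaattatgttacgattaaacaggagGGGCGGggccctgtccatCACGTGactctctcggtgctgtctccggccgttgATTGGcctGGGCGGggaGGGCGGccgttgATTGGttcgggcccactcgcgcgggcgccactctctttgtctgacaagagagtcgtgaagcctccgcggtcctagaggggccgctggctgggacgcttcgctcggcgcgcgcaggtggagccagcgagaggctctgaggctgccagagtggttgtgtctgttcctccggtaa
ZNF195: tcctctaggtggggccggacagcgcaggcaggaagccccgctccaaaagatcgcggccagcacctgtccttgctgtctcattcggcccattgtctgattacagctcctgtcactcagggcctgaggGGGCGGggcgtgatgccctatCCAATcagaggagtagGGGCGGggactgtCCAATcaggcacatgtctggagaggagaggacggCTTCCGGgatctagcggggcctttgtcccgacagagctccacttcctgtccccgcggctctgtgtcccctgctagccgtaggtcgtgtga

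The ZNF655 window held 1 GC box 22 bases before the start and 1 ETS core 23 bases after it. The ZNF195 window held 2 GC boxes, 2 CCAAT boxes and an ETS core, read on the opposite strand, 40 bases before the start. The ZNF789 window held 3 GC boxes, 2 CCAAT boxes on the opposite strand and 1 E-box, and no ETS core. None of the 3 windows matched the TATA or the YY1 letters. CpG dinucleotides numbered 25 in the ZNF655, 26 in the ZNF789 and 17 in the ZNF195 window.

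The ETS core was the motif in which the family stood furthest from other promoters. RefSeq windows were held for 100 of the 118 names, 131 windows in all, and CCGGAAG occurred in 57 of them, or 43.5%. It occurred in 10.3% of all 35116 promoter windows, in 12.8% of those of protein-coding genes and in 17.3% of those of names with a value. ZNF names listed in the tables without a value had it in 33.0% of 109 windows, so the motif was also frequent in ZNF promoters whose transcripts carried no number. TATAAA occurred in 3.82% of the ZNF windows, in 11.5% of all windows and in 6.41% of those of names with a value. GGGCGG was in 62.6% of ZNF windows, in 45.0% of all windows and in 64.6% of those of names with a value. CACGTG was in 8.40%, 7.26% and 9.23%, so for both motifs the ZNF windows lay below those of names with a value. CCAAT was in 37.4%, 34.6% and 34.3%, and AGATGGC in 9.16%, 5.41% and 7.62%. The median number of CpG was 24 in the ZNF windows, 14 in all windows and 25 in windows of names with a value. Windows of 1 gene can overlap, and a match is a match of letters, not evidence of binding.

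The cluster on chromosome 7 was followed gene by gene because of these 2 names, a choice made after their values were seen. From ZNF789 to ZNF3, both included, RefSeq lists 19 protein-coding genes. Of these, 8 had a value and 2, ZNF789 and ZNF655, were above 0 without glucose. ZNF394 overlaps ZNF789 by 1087 bases, and it was listed at 0 without glucose and at 64.8 without glutamine. ZSCAN25 stood at 0 and 142, ZSCAN21 at 0 and 56.1, and ZNF3 at 0 and 49.0. ZKSCAN5, which lies between ZNF394 and ZNF655, was not listed, and ZKSCAN1 was listed with no number. Reads in the shared stretch of ZNF789 and ZNF394 cannot be told apart here. Of all names on chromosome 7, 15 were above 0 without glucose.

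The no-glucose reads of each of the 3 names lay on a single row. The no-glucose reads of ZNF655 all fell on 1 row, 101 of 101, and that row was the largest without glutamine as well, with 361 of 659 reads or 54.8% (95% Wilson interval 51.0 to 58.5%). The other 3 rows of ZNF655 stood at 136, 77.5 and 22.1 without glutamine and at 0 without glucose. The 80 no-glucose reads of ZNF789 also fell on 1 row. That row held 35 of 131 reads without glutamine, 26.7% (19.9 to 34.9%), beside rows of 39, 34 and 23 reads. Taken alone, this ZNF789 row stood at 101 without glucose and at 27.7 without glutamine, a log2 ratio of -1.83 as deposited. It was the 1 member row at least 2-fold higher without glucose. The files hold no transcript identifiers, so which isoforms these rows are is not known here.

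Ratios between the 3 names within a library do not depend on the scale of either library, and they were chosen after the values were seen. ZNF655 had 0.711 reads per read of ZNF195 without glucose (95% exact interval 0.546 to 0.924) and 3.35 without glutamine (2.85 to 3.94). It had 1.26 reads per read of ZNF789 (0.932 to 1.71) without glucose and 5.03 (4.16 to 6.12) without glutamine. Both intervals lay apart between the libraries. The ratio of ZNF195 to ZNF789 was 1.78 (1.34 to 2.36) without glucose and 1.5 (1.2 to 1.89) without glutamine, and these intervals overlap. Over the 3 rows above 0 in both libraries, the no-glutamine ratio was 1.83 (1.54 to 2.19) for ZNF655 to ZNF195, 10.3 (7.28 to 15.0) for ZNF655 to ZNF789 and 5.63 (3.91 to 8.31) for ZNF195 to ZNF789. The no-glucose ratios are the same by either count. The intervals of ZNF195 to ZNF789 thus overlapped over all rows and lay apart over single rows. These intervals hold counting error alone: no molecular identifiers were used, so reads are not independent molecules, and variation between cultures was not measured.

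**Figure D2:**
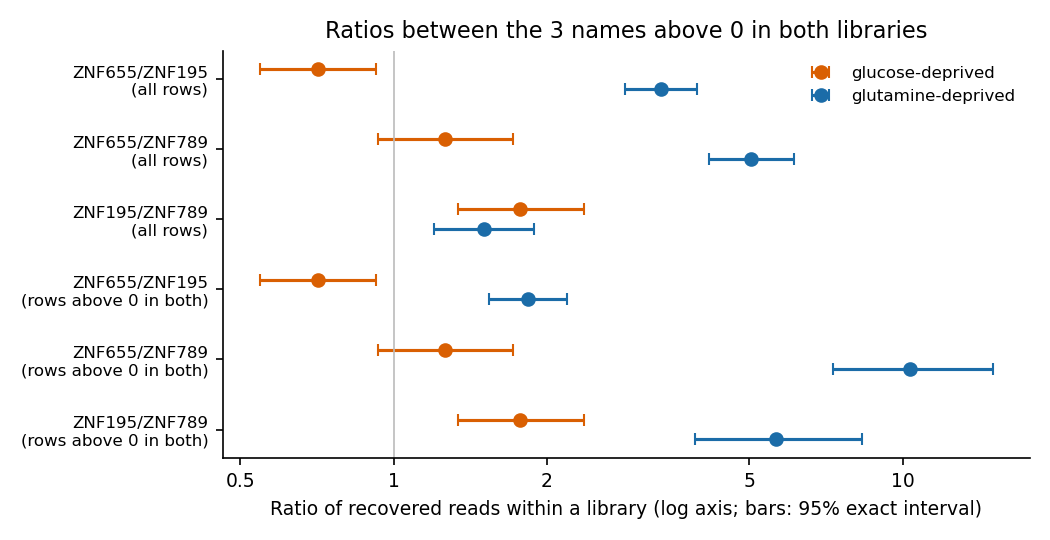
Ratio of recovered reads between pairs of the 3 names above 0 in both libraries (horizontal log axis), over all rows of a name or over the row above 0 in both; bars are 95% exact intervals. The orange no-glucose and blue no-glutamine intervals of ZNF655 to ZNF195 and of ZNF655 to ZNF789 lie apart, and those of ZNF195 to ZNF789 overlap only over all rows.

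The family's share of reads was higher without glucose as deposited, and the intervals of both libraries overlapped once a single locus was set aside. ZNF names held 323 of the 42827 no-glucose reads, 0.754% (95% Wilson interval 0.677 to 0.841%), and 7789 of the no-glutamine reads, 0.540% (0.528 to 0.552%). Without XLOC_220679, the unnamed locus with the most reads in both, the shares were 0.867% (0.778 to 0.966%) and 0.882% (0.863 to 0.902%), and these intervals overlap. In the no-glutamine library this locus held 559463 of 1442570 reads. The depth difference, the rescaled log2 ratios and the read numbers expected from equal shares all include it. The no-glucose share was spread over 3 names and the no-glutamine share over 118. Without ZNF195 the no-glucose share was 0.424% (0.367 to 0.490%), so 1 name decides much of it.

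The no-glutamine library gives the fullest view of the family. Values there ran from 1.56 to 521 with a median of 24.5 and quartiles of 9.67 and 63.5. Over all names, which include non-coding ones, the median was 20.55 and the quartiles 8.68 and 59.3. Among protein-coding names alone the order turned, with a median of 23.7 for ZNF names and 31.6 for all. The highest-valued name held 8.46% of the family's reads, the top 10 held 40.7% and the top 30 held 70.1%. In recovered reads the median ZNF name had 31, and the lowest, ZNF282, ZNF408 and ZNF566, had 2 each. Values are not divided by transcript length, which the files do not give, so an order of values is an order of reads and not of transcript abundance. If a ZNF name took the same share of reads in both libraries, 22 of the 118 would have had at least 3 reads without glucose, and 3 of these 22 (13.6%) were above 0 there. Of all names, 1794 would have had at least 3 reads and 208 (11.6%) were above 0. The 474 rows of any name above 0 without glucose had a median of 70 recovered reads, with quartiles of 18.25 and 104. The cause of the many 0 values beside them was not tested.

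**Figure D3:**
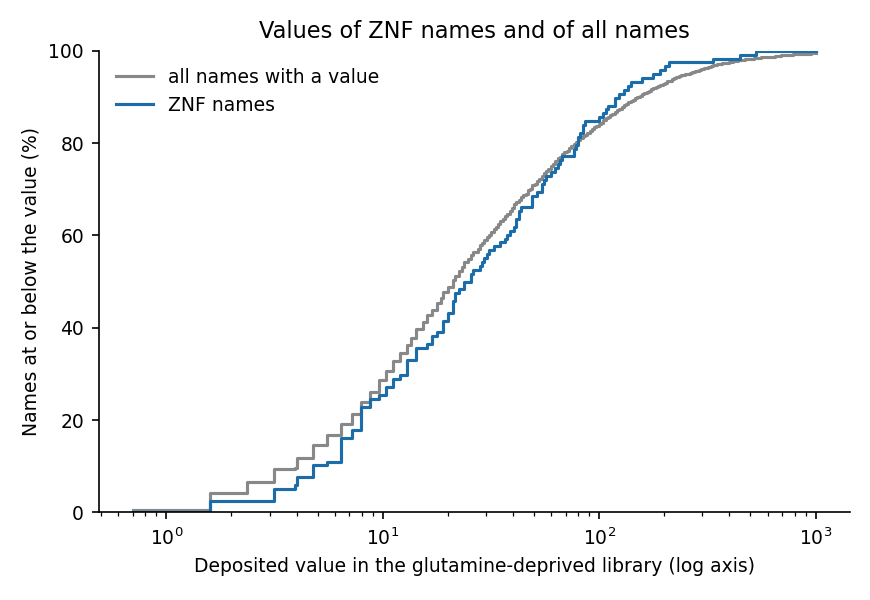
Cumulative share of names (vertical axis, %) at or below each deposited value in the no-glutamine library (horizontal log axis) for the 118 ZNF names in blue and all 9253 names in grey. The curves run close together, with medians of 24.5 and 20.55. All names include non-coding ones, and among protein-coding names alone the medians were 23.7 and 31.6.

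Below ZNF655, the no-glutamine reads of the family were led by ZNF598, the ubiquitin ligase that marks collided ribosomes, at 445 (95% counting interval 409 to 484). ZNF767P, a transcribed pseudogene on chromosome 7, followed at 335 (303 to 368). A group whose neighbouring intervals overlap came next, ZNF875 at 208 (184 to 235), ZNF333 at 197 (173 to 223), ZNF514 at 191 (167 to 216) and ZNF276 at 178 (155 to 203). ZNF195 was the 8th, followed by ZNF26 at 139, ZNF200 at 135, ZNF207 at 129.6 and ZNF512B at 123. Of these 12 names, 10 were listed at 0 without glucose and ZNF655 and ZNF195 were not. The interval of ZNF655, 482 to 563, overlaps that of ZNF598 by a narrow margin.

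Most names rested on 1 transcript row. Of 118 names 85 (72.0%) had a single row with a value, 19 had 2, 6 had 3, 4 had 4 and 4 had 5; over all names 60.5% had a single row, and over names that are protein-coding symbols 46.3%. The names with 5 rows were ZNF875, ZNF276, ZNF207 and ZNF638, and those with 4 were ZNF655, ZNF333, ZNF252P and ZNF789. In 28 of the 33 names with several rows 1 row held over 50% of the value, with a median of 62.0% and a range of 29.8 to 98.0%. ZNF598 was concentrated, with 391 of its 445 on 1 row and 32.4 and 22.1 on the others. ZNF767P stood at 225, 87.0 and 22.9. ZNF207 was spread, at 48.2, 41.9, 29.3, 6.31 and 3.94, and so was ZNF875, at 76.7, 70.4, 32.4, 26.1 and 2.35. ZNF292, at 115 and 2.35, lay at the upper end of the range and ZNF789 at its lower end.

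**Figure D4:**
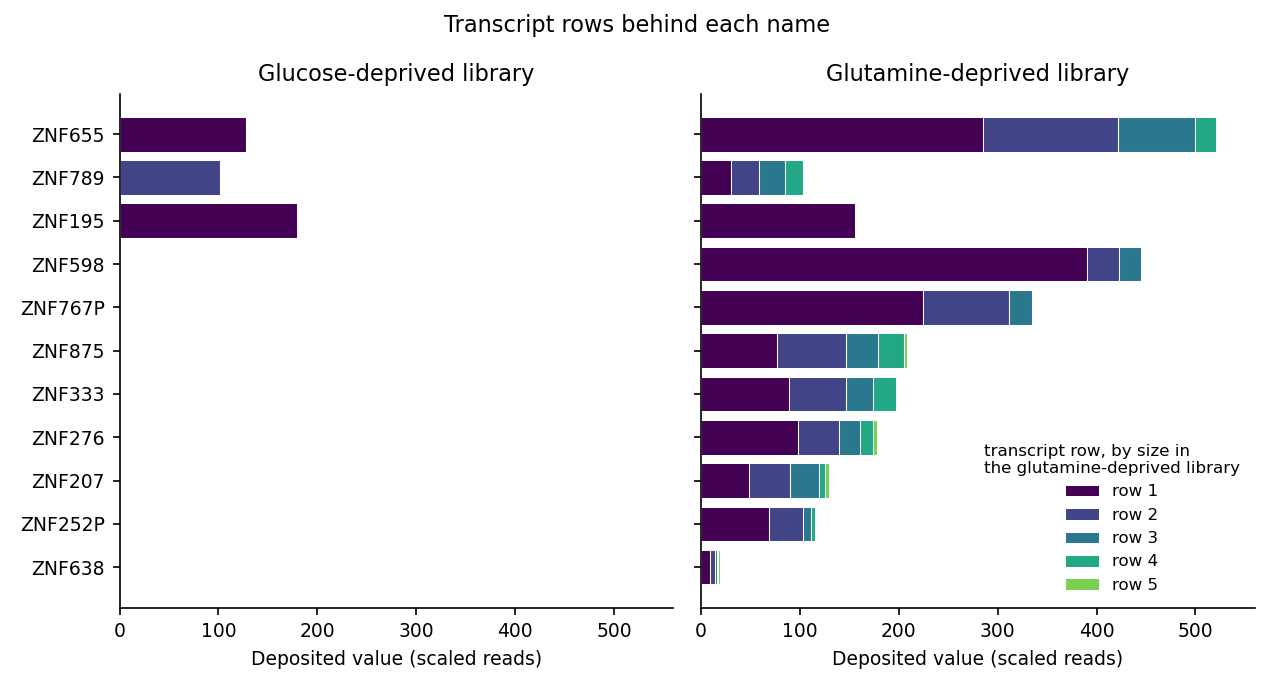
Deposited value of each transcript row (stacked segments, coloured by size order without glutamine) for 11 ZNF names in the no-glucose (left) and no-glutamine (right) library. ZNF655, ZNF789 and ZNF195 have 1 segment each on the left, the 8 other names none, and on the right 1 to 5 segments each.

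The members were then read by role, using lists of well-studied genes, each described by its counts. With 4.25% of all names above 0 without glucose, a count of 0 in lists this short does not set a list apart from other names. Among 14 RNA and translation factors 6 were listed in the tables, 4 had a value and 0 of these were above 0 without glucose. They were ZNF598, ZNF207, a spindle assembly and splicing protein also called BuGZ, ZNF638, an RNA-binding nuclear protein at 18.9, and ZNF346, a double-stranded RNA binder at 3.94. Among 24 regulators of transcription and chromatin 10 were listed in the tables and 5 had a value, all of these at 0 without glucose. ZNF292, a gene linked to neurodevelopmental disorder, stood at 118 without glutamine, ZNF652, a DNA-binding repressor, at 48.2, ZNF827, which recruits a chromatin remodelling complex to telomeres, at 27.7, ZNF143, an activator bound at many promoters, at 14.2 and ZNF384, a fusion partner in leukaemia, at 7.89. The median of these 5 was 27.7, near the family's 24.5.

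Among KRAB proteins known for repression of retroelements or single target genes 4 of 20 had a value, again all at 0 without glucose. ZNF274, which brings SETDB1 to zinc finger genes, stood at 81.4 without glutamine, ZNF587, a repressor of an endogenous retrovirus, at 61.7, ZNF268 at 39.5 and ZNF224 at 37.1. Their median was 50.6. A further 9 of the 20 names were listed in the tables with no number, ZNF10, ZNF43, ZNF91 and ZNF445 among them, and for these no level is given. Of 9 SUMO, ubiquitin and repair genes 4 were listed in the tables and 3 had a value, ZNF598, ZNF827 and the SUMO ligase ZNF451, at 14.2. Of 22 partners through which KRAB proteins repress, 19 were listed in the tables and 14 had a value, with a median of 36.7 without glutamine. Of these 14, 0 were above 0 without glucose (4.25% of all names were). MORC2, a chromatin compactor of the HUSH pathway, stood at 263, TRIM28 at 227, the DNA methyltransferase DNMT1 at 220 and the histone methyltransferase EHMT1 at 196.

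ZNF names were listed with a number more often than the tables as a whole, and so were other C2H2 families and the KRAB partners. The tables as a whole include unnamed and non-coding names, and the share among listed protein-coding names was not computed. The difference is therefore not shown to be particular to zinc finger genes. Of listed KRAB partners 14 of 19 had a value, and of listed markers of other cell types 0 of 5. Of listed names, 5 of 7 ZFP, 6 of 10 ZSCAN or ZKSCAN, 6 of 8 ZBTB and 3 of 7 KLF or SP names had a value. The tables hold 218 ZNF names in 438 rows, of which 54.1% of names and 40.4% of rows had a value, while over the whole table it was 31.7% of 29234 names and 20.3% of 91835 rows. The other 100 ZNF names have no value and enter nothing above. RefSeq knows 563 symbols of this form, and all 118 members are among them, 115 as protein-coding genes and 3, ZNF767P, ZNF252P at 115 without glutamine and ZNF286B at 23.7, as transcribed pseudogenes. Of the 118, 22 (18.6%) overlap another protein-coding gene in RefSeq, as do 25.9% of all protein-coding names with a value. ZNF276, for example, overlaps FANCA and VPS9D1. The tables do not tell on which strand a read lay.

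Chromosome 19 holds 263 of the 563 RefSeq symbols (46.7%) and 49 of the 118 members (41.5%), but 28.1% of the family's no-glutamine reads. The 49 members there had a median of 18.97 (quartiles 7.10 and 53.0), and the 69 elsewhere 30.8 (quartiles 14.2 and 79.1), so the ranges overlap widely. Of the ZNF names listed in the tables, 47.6% of 103 on chromosome 19 and 60.0% of 115 elsewhere had a value. ZNF875, a KRAB gene also called HKR1, was the highest on chromosome 19, followed by ZNF333, ZNF83 at 108, ZNF584 at 82.3 and ZNF274, a set named after the values were seen. None of the 49 was above 0 without glucose, and of the 469 names of any kind on this chromosome 12 were. Chromosome 7 held 9 members and 20.2% of the reads, mostly from ZNF655 and ZNF767P, and chromosome 16 held 8 and 14.7%, mostly from ZNF598 and ZNF276.

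**Figure D5:**
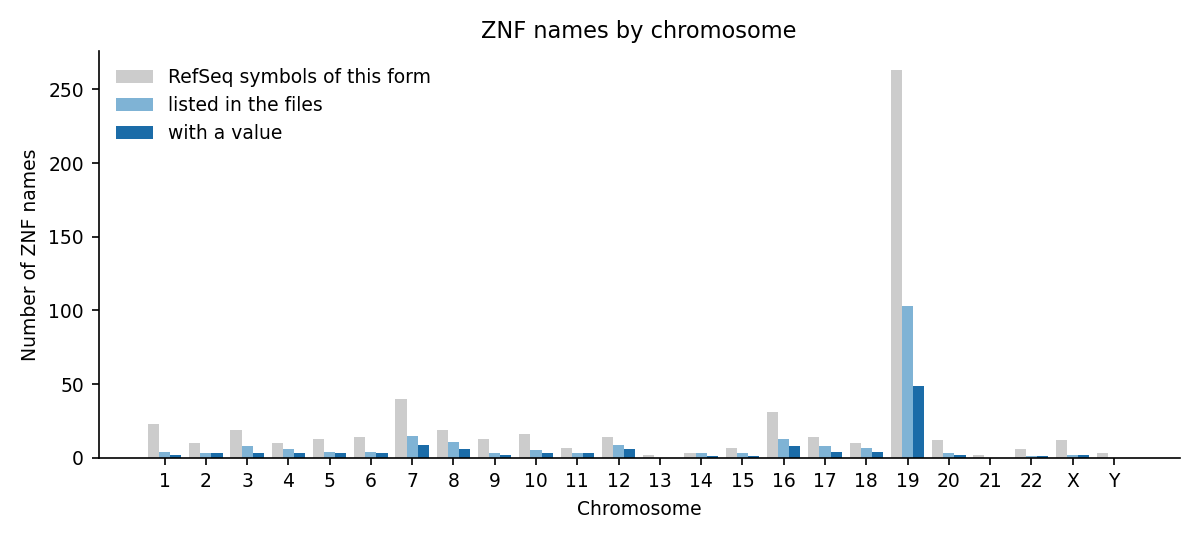
Number of ZNF names (vertical axis) by chromosome: RefSeq symbols of this form in grey, names listed in the tables in light blue and names with a value in dark blue. Chromosome 19 stands out with 263, 103 and 49.

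Related families were read beside the ZNF names, by counts alone. Other C2H2 genes named ZFP had 5 names with a value and a no-glutamine median of 8.68, those named ZSCAN or ZKSCAN 6 and 39.9, and those named ZBTB 6 and 30.4, with 0 above 0 without glucose in each. Of 3 KLF and SP genes with a value 1 was above 0 without glucose: KLF7 stood at 78.4 without glucose and 45.8 without glutamine, while KLF4, a pluripotency and epithelial factor, stood at 0 and 342. Antisense, divergent or intronic transcripts named after a ZNF gene numbered 27, all at 0 without glucose, with a no-glutamine median of 14.2. In 9 of the 27 the ZNF gene itself was a member, and the transcript named after it had the higher value in 5 of the 9. ZNF213-AS1 stood at 86.9 beside ZNF213 at 79.1, ZNF584-DT at 66.4 beside ZNF584 at 82.3, and ZNF674-AS1 at 45.9 beside ZNF674 at 36.4. These pairs were named after their values were seen, and a higher value of 1 of them can also reflect a longer transcript.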

How the data were processed

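Ribosome-depleted total RNA of both samples was sequenced, per the labels' protocols. The submitters' processing notes name HISAT2 2.0.5, StringTie and build hg38; no source used here gives the counting, annotation or normalization. The deposited values are an unlabelled score per transcript row: no unit stands in the file headers, and low values climb in steps of 1.264 without glucose and 0.791 without glutamine, with fitted offsets of 0.022 and -0.018. Dividing by the step gave whole reads within 0.1 for 100% of 472 and 18536 values up to 1000 reads. Conditions were taken from the titles and treatment labels; the column heading Glu of the no-glucose table is ambiguous, and both samples' descriptions name the glucose column.

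Rows without a number were left out and values under 1e-09 set to 0. Names with a value of at least 1 in either library, which was every name, were compared as log2(value + 1), no-glutamine minus no-glucose. Called means at least 2-fold apart. Counting intervals are 95%, Wilson for shares, exact for ratios and reads. Gene names, positions and promoters are RefSeq's (GRCh38.p14). The named genes were every member above 0 without glucose, the 12 highest and those with the most rows, and up to 6 per role list; zinc finger counts per protein were not made. Members, lists and settings were chosen with earlier results of these data known. The steps were tested on simulated data with Python 3.11.15, numpy 2.4.6, pandas 2.3.3 and scipy 1.17.1.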

Additional observations from a re-analysis of the deposited data

How the results depend on the processing

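The count of 3 ZNF names above 0 without glucose was the same under every setting tried for it: no filter, a minimum of 5, protein-coding symbols, single rows, and at least 3 reads. None of these settings could have changed it. The 3 names are protein-coding with at least 80 reads, each on 1 row, and all other members stood at 0. With each library rescaled to 1000000, 3 names instead of 0 were at least 2-fold higher without glucose, and the median log2 ratio of the 3 names above 0 in both turned from 0.034 to -4.35. Those of ZNF655 and ZNF789 turned to -2.37 and -4.35. Centring on the median of all names put 43 ZNF names at least 2-fold above that median and 32 at least 2-fold below it, most of the 32 being at 0 without glucose. The rescaled and centred counts were not made over all names, so they do not set the ZNF names apart. The centred median was 0.19, with a median of -4.29 for the 3 names, -2.30 for ZNF655 and -4.29 for ZNF789. A pseudocount of 0.1 gave a median of 7.77. Asking for 1 in both libraries left 1 name higher without glutamine and a median of 0.034. Taken as single rows, 175 were higher without glutamine and 1 without glucose. The shares without the most abundant name were 0.867% and 0.882%, without the most abundant ZNF name (ZNF195, ZNF655) 0.424% and 0.494%, and the no-glutamine share of protein-coding symbols was 0.498%. No paired analysis was possible because each group holds 1 sample. The cause of the shift between scales was not tested.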
